A study of Mus musculus with 16 samples.

Results

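Keratins are the intermediate filament proteins of epithelial cells and of hair, and their genes were examined here in 4 induced pluripotent stem cell (iPSC) lines of the mouse. The members were the genes whose symbol is Krt followed by a number and at most 1 small letter. There were 54 of them among 55471 genes in the table of CpG methylation. All 54 were found by gene ID among the 43984 genes of the histone table, where 50 names fit the same pattern and 5 of the 54 carried a different symbol. In that table Krt87 is listed as Krt83, and Krt83, Krt88, Krt90 and Krt72 are listed under older clone or pseudogene names, so that a search by symbol would have taken the values of Krt87 for those of Krt83.

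The lines came from 2 cell types of the same kind of mouse. Proximal tubule cells (PTC) of the kidney gave lines PTC11 and PTC12, and tail tip fibroblasts (TTF) gave lines TTF1 and TTF4. The mice carried the alleles SLC34a1-GCE, tdTomato, rtTAROSA (neo-in) and OKMS-250, were fed tamoxifen for 2 weeks from an age of 6 weeks, and were 8 to 10 weeks old when tissue was collected. Doxycycline switched on the reprogramming factors. In PTC the Cre that opened the rtTA allele was driven by the Slc34a1 promoter, so PTC lines stem from cells that used that promoter, while TTF received Cre from an episomal plasmid. Each line is 1 clone grown on mouse embryonic fibroblast feeders, and each of the 4 assays has 4 libraries (16 in all). For methylation, H3K4me3 and H3K36me3 that is 1 library per line, so a line was the replicate and each origin had 2, while both PTC libraries of H3K27me3 carry the name PTC11. The study took the cells from littermates and describes the methylation replicates as independent animals, and the labels do not tie lines to mice. P-values over lines rest on the spread between these clones, with a variance partly pooled over all genes.

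Keratin filaments form from pairs of 1 acidic type I and 1 neutral or basic type II protein, and the 2 types are encoded in 2 clusters. Simple epithelia make Krt8 with Krt18, the first keratins of the embryo, basal cells of stratified epithelia make Krt5 with Krt14, suprabasal epidermis makes Krt1 with Krt10, and hair follicles use a large set of their own. H3K4me3 lies over the starts of active or poised genes, H3K36me3 over gene bodies that are being transcribed and H3K27me3 over repressed genes. Methylated CpGs near a start go with a silent promoter, mainly where the promoter is rich in CpGs.

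On mm10 the type I cluster lay at chr11:99232761-100269871 (1037 kb) with 27 keratins, all on the minus strand, and with 23 genes of keratin-associated proteins (Krtap, the matrix proteins of hair) between them. The type II cluster lay at chr15:101347444-102032027 (685 kb) with 27 keratins, 23 of them on the minus strand. It holds 26 type II genes and, at its end, Krt18, which is type I. In the GENCODE annotation 53 of the 54 are protein coding and Krt74 is a unitary pseudogene. The listed start of each keratin lay in an exon of that gene, and no other keratin started closer than 8015 bp, so the windows of 1000 bp to each side, over which methylation was averaged, do not overlap between keratins. A predicted gene, Gm36026, starts within 1000 bp of Krt8, and Mir1941 within 1000 bp of Krt80.

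RefSeq promoter sequences (GRCm38.p6, the same build) were found by symbol for 36 keratins. Upstream sequence of 6 of them is printed. They span the range of CpG number and include the least methylated keratins, but not the most methylated ones described below. Each is the 250 bases before the RefSeq start, 5′ to 3′ on the strand of the gene, and capitals mark CpG. Krt18 (chr15:102027966-102028215, plus strand, 12 CpGs) and Krt8 (chr15:102004343-102004592, minus strand, 3 CpGs) were the least methylated members. Krt7 (chr15:101412153-101412402, plus strand, 16 CpGs) is shown because its RefSeq start lies 1360 bp from the start used for the methylation table. Krt72 (chr15:101786521-101786770, minus strand, 9 CpGs) was methylated despite its CpGs, and Krt5 (chr15:101712906-101713155, minus strand, 2 CpGs) and Krt31 (chr11:100050552-100050801, minus strand, 1 CpG) are CpG-poor.
Krt18: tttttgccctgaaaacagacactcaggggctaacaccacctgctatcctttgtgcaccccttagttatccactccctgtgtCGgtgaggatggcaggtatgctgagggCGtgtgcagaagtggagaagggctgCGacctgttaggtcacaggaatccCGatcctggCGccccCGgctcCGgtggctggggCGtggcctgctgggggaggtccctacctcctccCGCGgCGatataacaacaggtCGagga
Krt8: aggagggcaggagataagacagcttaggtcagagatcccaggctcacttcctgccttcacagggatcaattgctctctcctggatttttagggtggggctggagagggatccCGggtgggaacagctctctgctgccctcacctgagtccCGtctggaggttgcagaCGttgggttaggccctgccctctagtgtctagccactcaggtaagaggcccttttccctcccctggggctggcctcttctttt
Krt7: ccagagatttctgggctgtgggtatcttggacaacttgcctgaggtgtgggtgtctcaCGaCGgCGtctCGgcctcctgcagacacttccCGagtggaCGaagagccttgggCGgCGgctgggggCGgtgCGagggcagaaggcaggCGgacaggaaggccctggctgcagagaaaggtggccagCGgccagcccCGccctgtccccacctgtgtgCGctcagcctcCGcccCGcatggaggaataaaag
Krt72: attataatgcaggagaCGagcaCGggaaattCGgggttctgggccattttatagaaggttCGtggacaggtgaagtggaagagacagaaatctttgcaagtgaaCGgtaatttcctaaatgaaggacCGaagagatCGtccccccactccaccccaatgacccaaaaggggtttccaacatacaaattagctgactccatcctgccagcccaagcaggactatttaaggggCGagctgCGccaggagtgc
Krt5: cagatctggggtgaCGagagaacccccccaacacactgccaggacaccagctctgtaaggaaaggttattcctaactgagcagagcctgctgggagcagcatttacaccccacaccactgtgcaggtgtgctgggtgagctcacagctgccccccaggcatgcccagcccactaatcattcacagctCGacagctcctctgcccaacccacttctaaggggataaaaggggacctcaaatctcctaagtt
Krt31: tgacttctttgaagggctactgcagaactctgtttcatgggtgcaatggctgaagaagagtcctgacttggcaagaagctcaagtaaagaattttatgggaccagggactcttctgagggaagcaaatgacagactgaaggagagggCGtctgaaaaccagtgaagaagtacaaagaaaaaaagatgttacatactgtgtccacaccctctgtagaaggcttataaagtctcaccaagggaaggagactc

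Among the 36 keratins the 250 bases held a median of 3.5 CpGs (range 1 to 16), against 6 among all 32851 promoters of the table. At least 10 CpGs were found in 2 of 36 (5.56%), Krt18 and Krt7, while 37.8% of all promoters reached that number. The letters TATAAA, searched on both strands as a TATA box, were present in 17 of 36 keratin promoters (47.2%) and in 12.4% of all promoters. In Krt31 they stand shortly before the start, in ggcttataaagtctc. GGGCGG, the core of a GC box, was found on either strand in 2 of 36 (5.56%), Krt7 and Krt75, and in 32.7% of all. Krt14 resembled Krt7 in 1 respect, with a RefSeq start 1518 bp from the one used in the table, so that for these 2 genes the methylation value describes a region beside the RefSeq promoter. A match of letters is a description of the window and not a bound site.

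Start sites of keratin genes were more methylated than the average gene in every line. The mean fraction of methylated CpGs over the 54 keratins was 0.499 for PTC11, 0.636 for PTC12, 0.492 for TTF1 and 0.826 for TTF4, where the 50657 genes with a value in all 4 lines averaged 0.367, 0.477, 0.374 and 0.645. Keratins thus lay above all genes by 0.132, 0.159, 0.118 and 0.182. The gap was narrower for medians, with 0.505, 0.668, 0.458 and 0.849 for keratins and 0.380, 0.535, 0.370 and 0.769 for all genes. Depth is unknown for the methylation fractions, which came without coverage, and for the histone values, which came without counts, so no counting interval can be given for any of them.

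Among the lines, TTF4 held the highest fraction of the 4 lines in 44 of 54 keratins (81.5%), close to the 75.4% of all genes for which this was so. TTF1 had the lowest fraction in 27 keratins and PTC11 in 23. Within origins, TTF4 exceeded TTF1 in 51 of 54 keratins (89.7% of all genes) and PTC12 exceeded PTC11 in 46 (73.7% of all genes). The higher fractions of TTF4 were thus seen in keratins at about the rate of other genes.

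**Figure D1:**
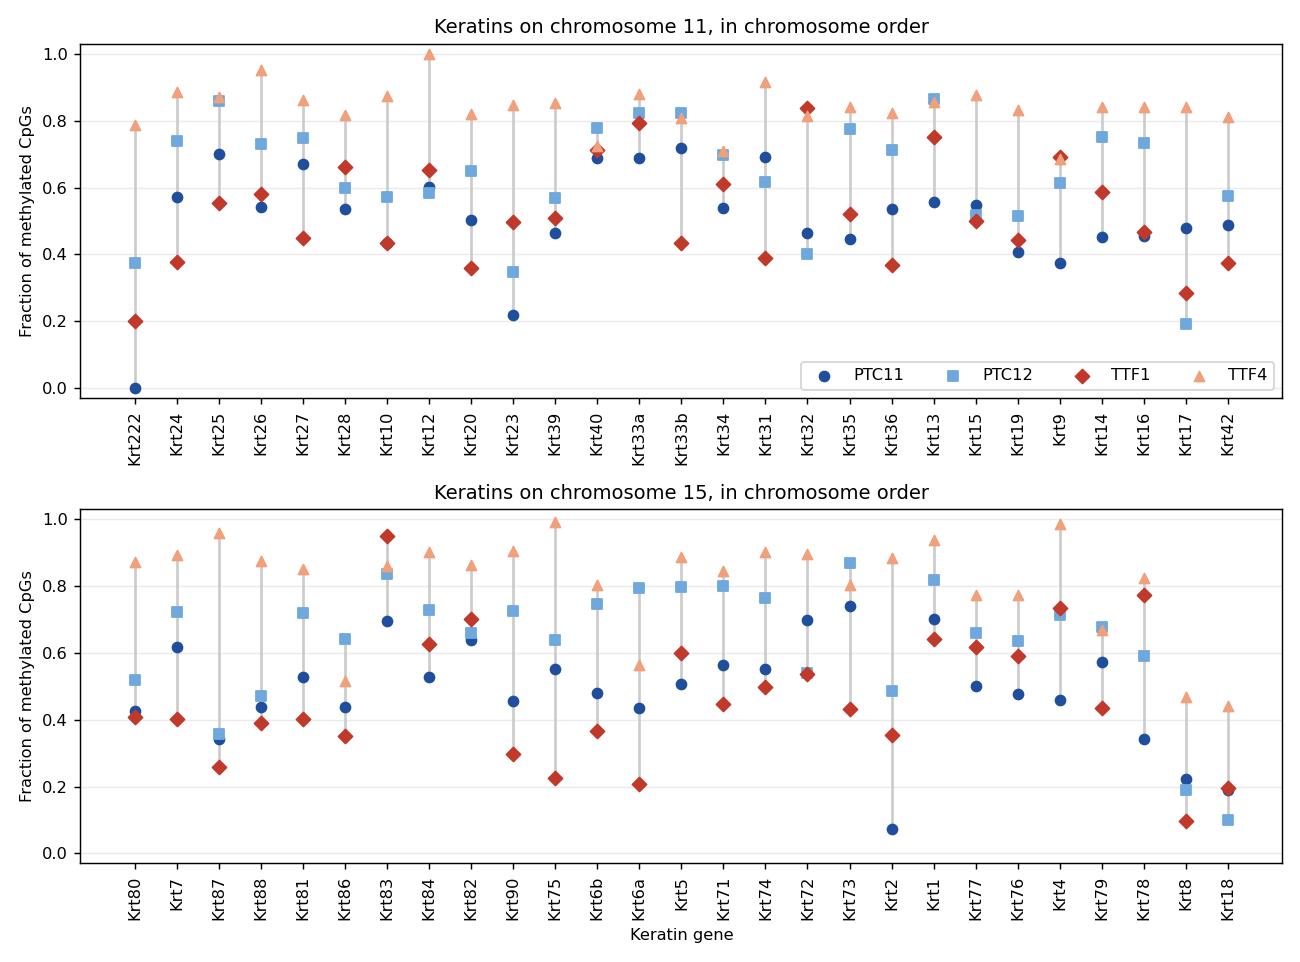
Fraction of methylated CpGs within 1000 bp of the start site (y axis) of each keratin in chromosome order (x axis), with 1 point per line and a grey bar from the lowest to the highest line. TTF4 is highest in 44 of 54 keratins, and Krt8 and Krt18, at the right of the lower panel, are the only members whose mean over the lines is below 0.3.

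Families that are likewise expressed in few tissues had similar levels. The 57 measured Krtap genes averaged 0.529, 0.656, 0.529 and 0.783 in PTC11, PTC12, TTF1 and TTF4, and 1222 olfactory receptor genes (Olfr) averaged 0.494, 0.610, 0.469 and 0.779. In TTF4 the keratin mean (0.826) lay above both. Collagen genes, 43 of them measured, were less methylated, with means of 0.292, 0.385, 0.310 and 0.584.

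**Figure D2:**
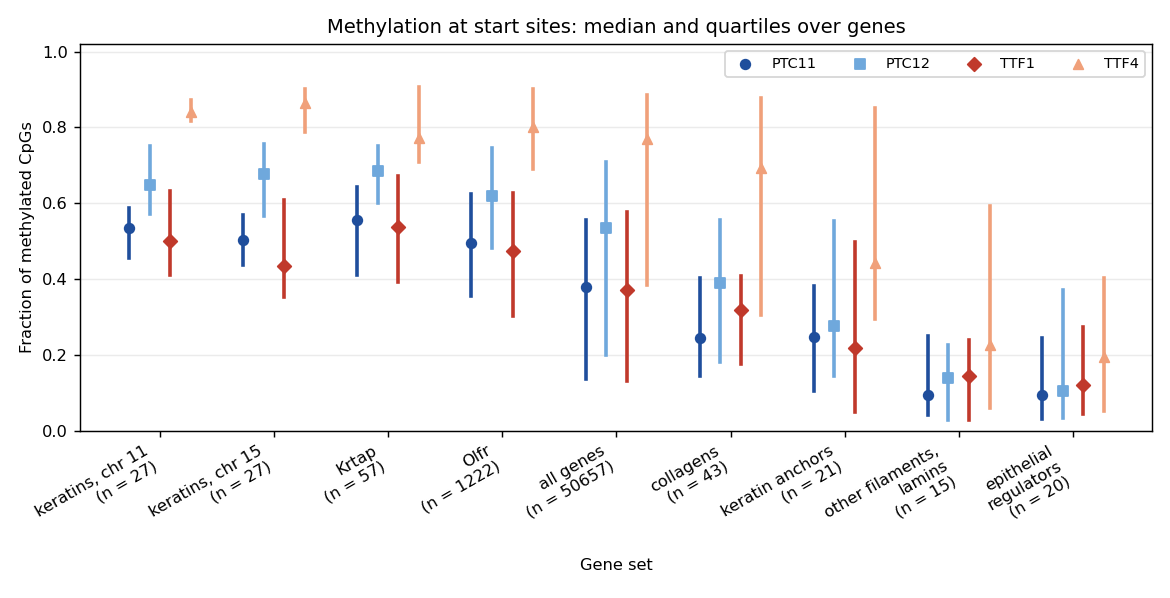
Median (symbol) and lower to upper quartile (bar) of the fraction of methylated CpGs over the genes of each set, by line, with the number of genes under each name. Both keratin clusters sit with Krtap and Olfr, above all genes in each line, and the other filament genes and the epithelial regulators sit lowest.

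Krt8 and Krt18, the pair of simple epithelia, stood apart from the other 52 keratins. Krt18 had fractions of 0.191, 0.0991, 0.197 and 0.440 in PTC11, PTC12, TTF1 and TTF4 (mean 0.232). Krt8 had 0.223, 0.191, 0.0969 and 0.469 in the same order (mean 0.245). Both were low in 3 lines and raised in TTF4. With the mean of each line subtracted, the origins overlapped in both genes. As deposited they overlapped in Krt8, while both TTF fractions of Krt18 lay above both PTC fractions. Of all genes 25.0% lay below the mean of Krt18 and 25.8% below that of Krt8, so these starts were in the lower part of the genome-wide range but not at its floor. No other keratin had a mean under 0.3, a level that 29.0% of all genes fell below. The distance between the pair and the rest is given as a description, since the genes were ranked by these values.

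The next lowest means belonged to genes with wide gaps between lines. Krt222, a type I member at the edge of the cluster, was at 0, 0.373, 0.200 and 0.788 in the same order. Krt17, a keratin of stressed and regenerating epithelium, was at 0.478, 0.191, 0.283 and 0.841. Krt2, of the upper epidermis, was at 0.0732, 0.487, 0.354 and 0.883. All 3 were above 0.7 in TTF4, unlike Krt8 and Krt18, which stayed under 0.5 in each line. Krt2 and Krt222 had the widest ranges of the family (0.810 and 0.788), followed by Krt75 of the companion layer (0.766), the hair keratin Krt87 (0.702) and Krt17 (0.650), and in all 5 TTF4 was the highest line.

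The 5 highest means belonged to keratins of hair, the inner root sheath, suprabasal epidermis and internal stratified epithelia. The hair keratin Krt83 had fractions of 0.695, 0.835, 0.952 and 0.860 (mean 0.836), and the hair keratin Krt33a had 0.687, 0.823, 0.793 and 0.881. Krt1, the type II keratin of suprabasal epidermis, had 0.702, 0.818, 0.642 and 0.938. Krt13 of internal stratified epithelia had 0.558, 0.866, 0.750 and 0.857, and Krt25 of the inner root sheath had 0.699, 0.859, 0.555 and 0.872. Each of these 5 exceeded 0.5 in every line.

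Grouped by the epithelium they serve, keratins of simple epithelia had the lowest mean in PTC12 and TTF4. In PTC11 the 3 keratins of no group (Krt222, Krt88 and Krt90, mean 0.298) were lower, and in TTF1 these (0.296) and the stress and companion group (0.321) were. The 6 genes of simple epithelia averaged 0.360, 0.420, 0.333 and 0.717 in PTC11, PTC12, TTF1 and TTF4. Of the other 4, Krt19 had 0.406, 0.515, 0.444 and 0.834, and Krt7 had 0.619, 0.723, 0.402 and 0.894. Krt20, a keratin of the gut lining, had 0.503, 0.649, 0.359 and 0.820, and Krt23 had 0.218, 0.346, 0.496 and 0.847. These 4 were thus within the range of the rest of the family.

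In stratified epithelium 16 keratins averaged 0.475, 0.659, 0.572 and 0.852. The basal pair had similar values, with 0.506, 0.797, 0.600 and 0.886 for Krt5 and 0.453, 0.751, 0.587 and 0.841 for Krt14. Krt10, the suprabasal partner of Krt1, was at 0.435, 0.571, 0.433 and 0.874, lower than Krt1 in each line. Stress and companion layer keratins (6 genes) averaged 0.482, 0.613, 0.321 and 0.809. Within that group Krt16 had 0.455, 0.732, 0.467 and 0.841, and the low mean in TTF1 was shared by Krt17 (0.283), Krt75 (0.226) and Krt6a (0.207).

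Hair follicle keratins were methylated in all lines. The 8 genes of the inner root sheath averaged 0.625, 0.739, 0.520 and 0.869, among them Krt71 with 0.565, 0.801, 0.447 and 0.844. The 15 genes of hair cortex and cuticle averaged 0.560, 0.676, 0.564 and 0.822, and Krt31 had 0.691, 0.617, 0.390 and 0.915. Krt85, the other hair keratin fixed for naming, was not analysed here. The groups were not tested against each other, because the genes of a group are not replicates.

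By cluster the family divided little. Keratins on chromosome 11 averaged 0.510, 0.635, 0.520 and 0.840 in PTC11, PTC12, TTF1 and TTF4, and those on chromosome 15 averaged 0.488, 0.637, 0.464 and 0.813. The difference of chromosome 11 minus chromosome 15 was 0.0217, -0.00203, 0.0555 and 0.0268, a mean of 0.0255 ± 0.0236 (SD over 4 lines). Counting Krt18 with the type I genes, where its protein belongs, brought that mean to -0.00278 ± 0.0309 (SD over 4 lines). The sign of the mean over lines thus changed with the place of Krt18. By line it changed in PTC11 and TTF4, while PTC12 stayed below 0 and TTF1 above 0. With medians the difference of chromosome 11 minus chromosome 15 was above 0 in PTC11 and TTF1 and below 0 in PTC12 and TTF4.

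Keratin starts held an intermediate number of CpGs. Within 1000 bp to each side a keratin had a median of 34 CpGs (range 14 to 69), against 25 over all genes, 15.5 for Krtap, 7 for Olfr and 48.5 for collagen genes. Only Krt87 (69) and Krt18 (65) reached 60 CpGs, 3.70% of keratins, where 25.1% of all genes did. Krt8 had 54, Krt72 50 and Krt28 of the inner root sheath 48. Krt31 had the fewest, 14, and the window of Krt7 had 15, since the CpG-rich stretch printed above for Krt7 lies outside it.

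The number of CpGs did not order keratins by methylation as it did other genes. Across the 54 keratins the Spearman correlation of CpG number with the mean fraction was -0.0372 (Pearson -0.298), and without Krt8 and Krt18 it was 0.0774 (Pearson -0.0357, n = 52). Across 50657 genes it was -0.636, and across the 27621 genes within the keratin range of 14 to 69 CpGs it was -0.370. In TTF4 alone the keratin correlation was 0.294, and in the other lines it lay between -0.183 and -0.0791. These are descriptions across genes of the same libraries, which are not independent. Krt87 with 69 CpGs had fractions of 0.344, 0.358, 0.258 and 0.960, and so was largely methylated in TTF4 alone. Krt72 with 50 CpGs, somewhat fewer than the 54 of Krt8, had 0.700, 0.539, 0.536 and 0.898.

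**Figure D3:**
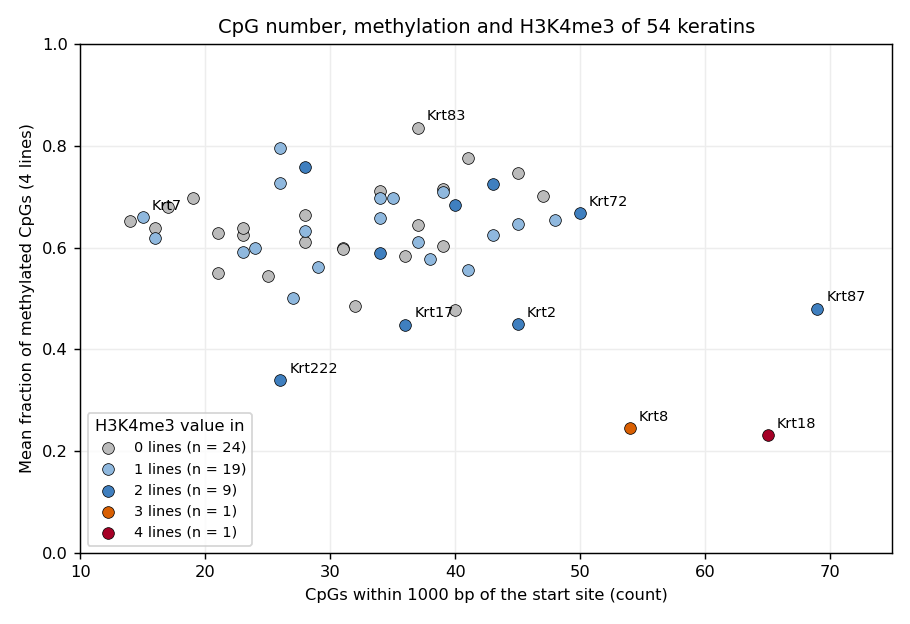
Number of CpGs within 1000 bp of the start site (x axis) against the mean fraction of methylated CpGs over the 4 lines (y axis), 1 point per keratin, coloured by the number of lines with an H3K4me3 value. Most keratins lie between 0.45 and 0.85 at any number of CpGs, while Krt8 (54 CpGs) and Krt18 (65 CpGs) lie near 0.24 and have the mark in most lines.

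Lines agreed less on the order of keratins than on the order of all genes. Across keratins the Spearman correlation was 0.621 between the PTC lines and 0.145 between the TTF lines, and across origins it ran from 0.101 (PTC12 with TTF4) to 0.362 (PTC11 with TTF1). Across all genes the 6 pairs lay between 0.621 and 0.740. The narrower spread of levels among keratins and the unknown coverage both bear on such values, and their part was not tested.

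The study asked whether iPSC keep marks of the cell they came from, and the origins were compared gene by gene on centred fractions, that is, fractions less the mean of all genes in the same line. No keratin passed: 0 of 54 had an adjusted p under 0.05 (limma, Benjamini-Hochberg over all genes), where 0.00395% of the 50657 genes tested did. At an unadjusted p under 0.05 there was 1 keratin, against 4.72% of all genes. The median difference of TTF minus PTC over keratins was 0.00438, against -0.0100 over all genes, with 28 keratins higher and 26 lower in TTF lines. In 8 keratins the lower TTF line exceeded the higher PTC line (14.8%, against 15% of all genes), and below them in another 8 (14.8%, against 12.8% of all genes). Both shares were near those of all genes.

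Krt32, a hair keratin, and Krt23 had the largest differences towards TTF. Krt2 (0.251) and Krt222 (0.220) also had large differences, but their origins overlapped, and the genes that follow are those whose origins did not. Krt32 had 0.465 and 0.400 in the PTC lines and 0.838 and 0.815 in the TTF lines, a centred difference of 0.307 ± 0.158 (SE, n = 2 lines each). For Krt23 it was 0.303 ± 0.153 (SE). Its centred values were -0.154 and -0.136 in PTC11 and PTC12 and 0.118 and 0.198 in TTF1 and TTF4. Each SE given is that of limma, which draws the variance of a gene towards a trend over all genes. It can therefore be wider or narrower than the spread of the lines in that gene. Krt78 of stratified epithelium had 0.341, 0.591, 0.772 and 0.825, Krt4, the type II keratin of oral and esophageal epithelium, had 0.460, 0.713, 0.736 and 0.987, and Krt12 of the cornea had 0.603, 0.582, 0.653 and 1.00. In these 5 genes both TTF lines exceeded both PTC lines on the fractions as deposited too, and none passed the adjusted test (limma adjusted p = 1.00 for each).

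Krt6a, a type II keratin induced by wounding, had the largest difference in the other direction and was the keratin with an unadjusted p under 0.05. In limma with Benjamini-Hochberg adjustment over all genes its adjusted p was 1.00 (unadjusted p = 0.0473). Its fractions were 0.435 and 0.795 in PTC11 and PTC12 against 0.207 and 0.563 in TTF1 and TTF4, a centred difference of -0.317 ± 0.156 (SE). Krt73 of the inner root sheath had 0.740, 0.871, 0.433 and 0.803 and a centred difference of -0.274 ± 0.143 (SE). The hair keratin Krt33b had 0.719, 0.824, 0.435 and 0.810, the hair keratin Krt86 had 0.437, 0.640, 0.351 and 0.516, and Krt79 had 0.573, 0.678, 0.434 and 0.670. In each of these 5 the deposited fraction of TTF4 fell within the PTC range, and it was placed below both PTC lines only once the higher mean of TTF4 had been subtracted. On the fractions as deposited 0 keratins had both TTF lines below both PTC lines, where 3.36% of all genes did.

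**Figure D4:**
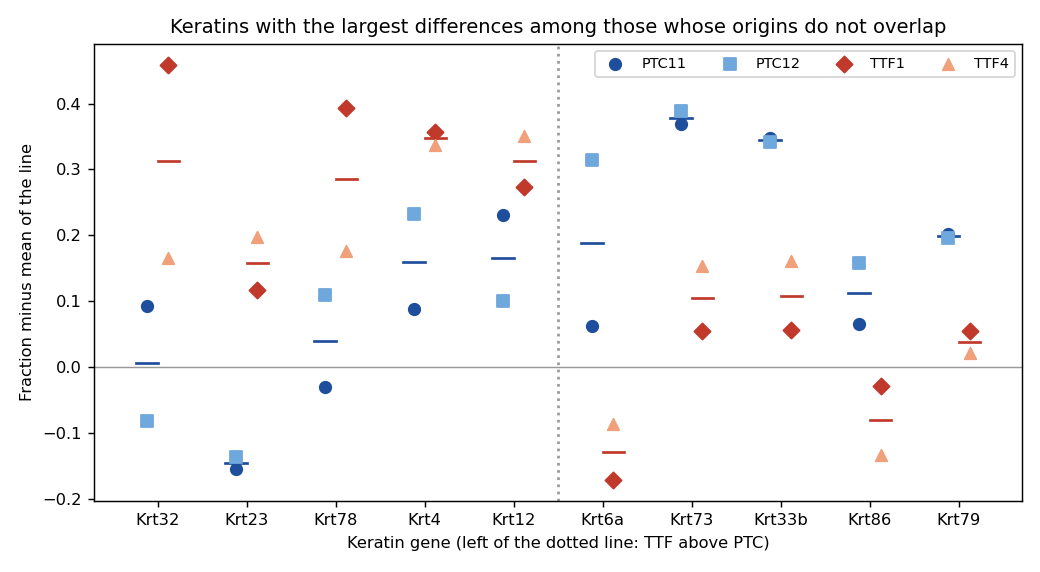
Fraction of methylated CpGs minus the mean of its line (y axis) in the 5 keratins with the largest differences in each direction among those whose origins do not overlap (x axis), with PTC lines to the left and TTF lines to the right of each position and a short bar at the mean of each origin. The origins do not overlap by the way these genes were chosen, and none of the differences passed the adjusted limma test.

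For Krt8 and Krt18 the centred difference was -0.0113 ± 0.135 (SE) and 0.0864 ± 0.135 (SE), with an adjusted p of 1.00 in limma for both. Both differences were smaller than their SE.

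H3K4me3 was sparse over keratins and depended on the library. A gene has a value where a peak was called near its start. Of 54 keratins, 1 had a value in PTC11 (34.4% of all genes did) and 23 in PTC12 (45.4%). In TTF1 there were 17 (44.2%) and in TTF4 3 (34.9%). Keratins thus came close to the share of all genes in PTC12, fell somewhat below it in TTF1, and were nearly without peaks in PTC11 and TTF4, 1 line of each origin. The mark was listed in at least 1 line in 30 keratins (55.6%, against 49.5% of all genes) but in all 4 lines in 1 (1.85%, against 31.2%). Without PTC12 the 30 keratins became 18.

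Krt18 was the keratin with H3K4me3 in every line, at 2.64, 4.31, 4.09 and 4.21 RPKM in PTC11, PTC12, TTF1 and TTF4. In the same order these values exceeded 7.62%, 44.2%, 33.3% and 77.5% of listed genes. The TTF and PTC lines overlapped, and the difference was 0.23 ± 0.36 (SE) on the log2(RPKM + 1) scale (limma adjusted p = 1, the only keratin that could be tested, with 0.481% of 13709 genes called). Krt8 had no value in PTC11 and 3.25, 3.54 and 2.74 RPKM in PTC12, TTF1 and TTF4. The least methylated keratins were therefore also those marked in the most lines. Krt222, next in methylation, was the remaining keratin with a value in TTF4, 3.24 RPKM, and had 2.59 in PTC12.

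Beyond these 3, H3K4me3 over keratins came from PTC12 and TTF1. A value in both was listed for 8 keratins. Krt17 had 3.91 RPKM in PTC12 and 3.32 in TTF1. Krt4 had 3.01 and 3.45, Krt2 2.47 and 3.13, Krt87 2.88 and 3.50, and Krt13 3.52 and 2.28. The other three were Krt72 (2.84 and 2.08), Krt27 of the inner root sheath (2.38 and 1.99) and Krt79 (2.39 and 1.58).

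A further 12 keratins were listed in PTC12 alone. The highest were Krt42 (3.11 RPKM), Krt28 (3.11), Krt80 (2.72), Krt7 (2.45) and Krt35 (2.43), followed by Krt15 (2.10), Krt10 (1.91), Krt78 (1.76), Krt84 (1.66), Krt33a (1.37), Krt14 (1.15) and Krt6b (0.323). In TTF1 alone there were 7, from Krt9 of palm and sole epidermis (3.27 RPKM), Krt12 (2.93), Krt40 (2.68), Krt5 (2.38), Krt76 (2.17) and Krt81 (1.51) down to Krt6a, which is listed at 0. These single-library values had no replicate in the same origin. Keratin values in PTC12 and TTF1 were modest: the median where listed was 2.47 and 2.68 RPKM, against 4.59 and 5.01 for all genes.

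By role, H3K4me3 in any line was listed for 13 of 16 keratins of stratified epithelium, 3 of 6 of simple epithelium, 4 of 6 of the stress and companion group, 3 of 8 of the inner root sheath, 6 of 15 of hair cortex and cuticle and 1 of 3 others. By chromosome the counts were 14 of 27 on chromosome 11 and 16 of 27 on chromosome 15. The 24 keratins without the mark had a median methylation of 0.638, the 19 with it in 1 line 0.632 and the 9 with it in 2 lines 0.589. Apart from Krt8 and Krt18, then, keratins with and without called peaks covered much the same range of methylation.

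**Figure D5:**
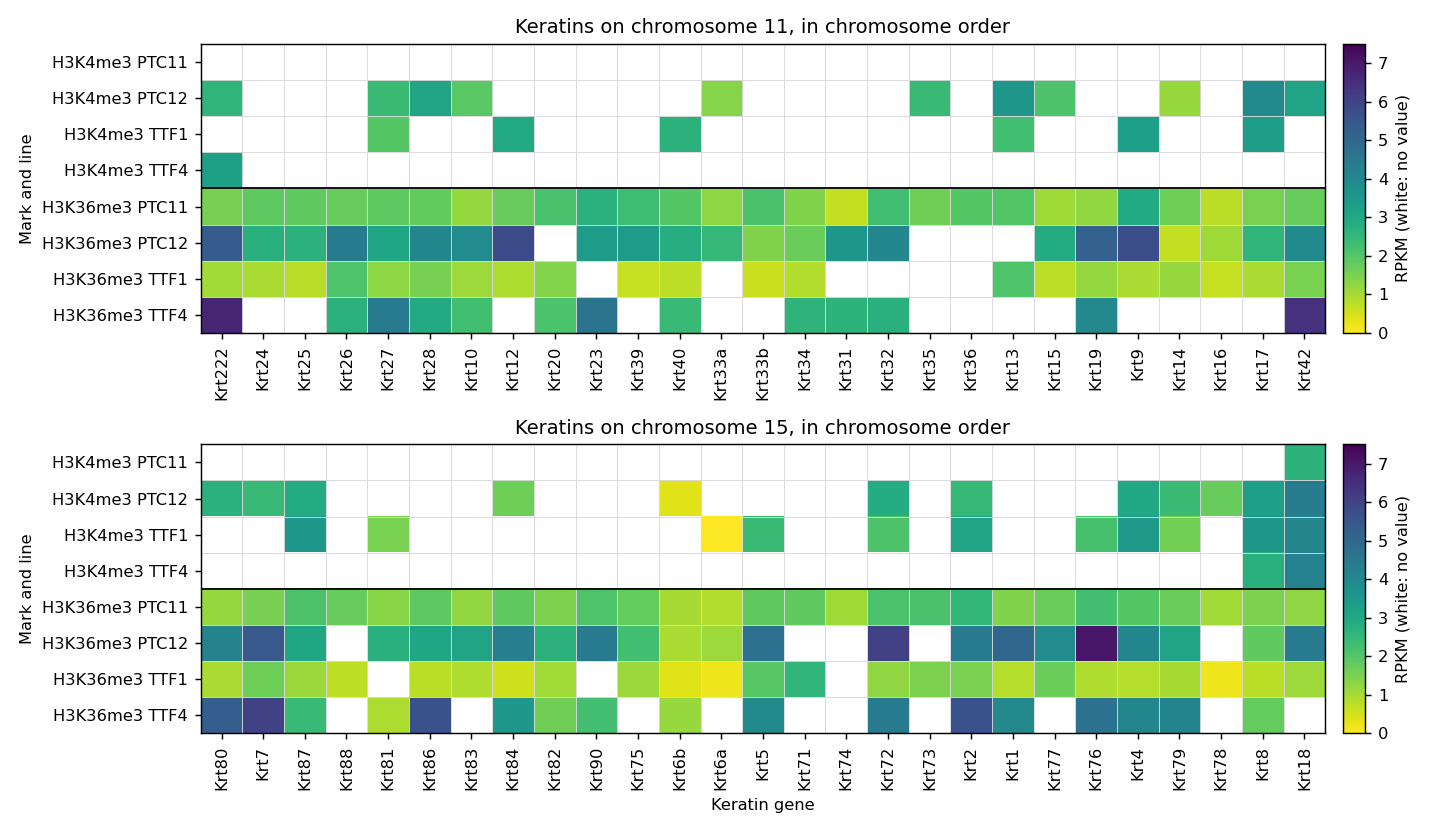
H3K4me3 (upper 4 rows) and H3K36me3 (lower 4 rows) of each keratin in chromosome order (columns), coloured by RPKM on a linear scale from 0 to 7.5, with white where no value is listed. H3K4me3 fills 23 cells in PTC12 and 17 in TTF1 but 1 in PTC11 and 3 in TTF4, while H3K36me3 fills all 54 cells in PTC11 and is darkest in PTC12 and TTF4.

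H3K36me3, averaged over peaks in the gene body, was listed for all 54 keratins in PTC11 (68% of all genes) and for 45 in PTC12 (52.5%). In TTF1 it was listed for 45 (53.4%) and in TTF4 for 30 (46.3%). It was present in all 4 lines in 24 keratins (44.4%, against 38.7% of all genes), in 3 lines in 21, in 2 in 6 and in 1 in 3. On chromosome 15 the mark was in all 4 lines in 15 of 27 keratins, and on chromosome 11 in 9 of 27. Krt35, Krt36 and Krt74 were those listed in PTC11 alone. Levels were near those of all genes. The median where listed was 1.74, 3.38, 0.963 and 3.72 RPKM for keratins in PTC11, PTC12, TTF1 and TTF4. For all genes it was 1.60, 3.88, 1.18 and 4.01 in the same order. In at least 1 line the mark was listed for 100% of keratins and collagen genes, 70.9% of all genes and 12.2% of Olfr. A listed value does not by itself show transcription. The proximal tubule gene Cubn, with no H3K4me3 value in any line, had 1.44, 3.82, 0.652 and 4.55 RPKM. Whether keratins were transcribed was not tested.

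Among the 24 keratins with H3K36me3 in all 4 lines, the 6 highest means belonged to Krt76, Krt7, Krt222, Krt2, Krt72 and Krt42. Krt76 of the palate had 2.24, 7.06, 0.892 and 4.69 RPKM in PTC11, PTC12, TTF1 and TTF4. Krt7 had 1.53, 5.41, 1.66 and 6.04 RPKM, and Krt222 had 1.53, 5.31, 1.04 and 6.72. In the same order Krt2 had 2.54, 4.45, 1.51 and 5.62 RPKM, Krt72 had 2.14, 6.07, 1.25 and 4.41, and Krt42 had 1.75, 3.94, 1.50 and 6.42. None of these 6 could have H3K4me3 in all lines, since Krt18, the only keratin that did, had no H3K36me3 value in TTF4.

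Krt8 and Krt18 differed in H3K36me3. Krt8 had 1.49, 1.84, 0.781 and 1.76 RPKM, which exceeded 39.2%, 9.70%, 19.4% and 7.55% of listed genes. Krt18 had 1.23, 4.42 and 1.10 RPKM in PTC11, PTC12 and TTF1, above 22.1%, 63.4% and 42.4% of listed genes, and no value in TTF4. Krt6a (0.862, 1.10 and 0.190 RPKM, none in TTF4) and Krt6b (0.975, 0.951, 0.370 and 1.17) had lower levels than Krt8 in each line where they had a value. Close paralogs are Krt6a with Krt6b, Krt16 with Krt17 and Krt42, Krt33a with Krt33b, and Krt81 with Krt83, Krt86 and Krt87, and reads that match more than 1 gene of such a set could be lost or split, which was not tested.

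The gap in H3K36me3 ran across origins. In 23 of the 24 keratins with a value in every line, both PTC12 and TTF4 exceeded both PTC11 and TTF1, as in 93.6% of all such genes. From read coverage the study describes the other direction, with PTC11 and TTF1 higher at Jag1 and Gata3. The deposited values of Gata3 were 1.51, 3.66, 1.50 and 5.44 RPKM in PTC11, PTC12, TTF1 and TTF4. The reason for this difference was not tested. No keratin had both TTF lines above both PTC lines (0.452% of 17039 genes did) or below them (3.05%). In limma 0 of 24 keratins passed (0.112% of 17039 genes did), 0 had an unadjusted p under 0.05, and the smallest adjusted p was 1. The median difference on the log2(RPKM + 1) scale was -0.20, against -0.14 for all genes. The SE of a keratin ran from 0.35 to 1.2 on that scale.

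H3K27me3 was listed for none of the 54 keratins in any of the 4 libraries. Over all genes it was listed for 192 of 43984 (0.437%), so the tables hold too few peaks to say that keratins lack the mark.

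Partners and neighbours in the same pathway had mixed profiles, and some anchor genes resembled keratins. The anchor genes averaged fractions of 0.26, 0.34, 0.27 and 0.51 in PTC11, PTC12, TTF1 and TTF4. A mean under 0.3 was found in 11 of 21 (29.0% of all genes), and 6 had no H3K4me3 value in any line. Of the 21 genes listed as keratin anchors, most of them genes of desmosomes and hemidesmosomes, 11 had H3K4me3 in all 4 lines (31.2% of all genes did). Dsp, which encodes desmoplakin, the link from filament to desmosome, had 3.52, 6.96, 5.95 and 3.32 RPKM in PTC11, PTC12, TTF1 and TTF4 and fractions of methylated CpGs of 0.0712, 0.0750, 0.0279 and 0.294. Jup, which encodes plakoglobin, had 4.45, 5.33, 8.15 and 3.93 RPKM and fractions of 0.00417, 0.0474, 0.0159 and 0.135. Pkp1, Pkp2, Pkp4, Dsg2, Dsc2, Plec, Dst, Ppl and Tchp made up the rest of the 11. Of the desmosomal cadherins of stratified epithelium, Dsc3 had H3K4me3 in PTC11, PTC12 and TTF1 (4.07, 2.72 and 2.99 RPKM). Dsg1a, Dsg1b, Dsg1c, Dsg3, Dsg4 and Dsc1 had no H3K4me3 value in any line, and Dsg3 had fractions of 0.563, 0.393, 0.521 and 0.852.

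Of 15 other intermediate filament and lamin genes, 10 had a mean fraction under 0.3. H3K4me3 was in all 4 lines in 10 (31.2% of all genes). Over all 15 genes, marked or not, the mean fraction was 0.142, 0.194, 0.182 and 0.349 in PTC11, PTC12, TTF1 and TTF4. Vim, the filament of mesenchymal cells, had fractions of 0.0415, 0.134, 0.0268 and 0.0358 and no H3K4me3 value in PTC11. Lmnb1, a lamin of the nuclear envelope, had fractions from 0 to 0.0585 and H3K4me3 between 4.28 and 6.80 RPKM.

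Regulators of keratin genes in epithelium were described in the same way. Of 20, 16 had a mean fraction under 0.3 (2 of 54 keratins, 29.0% of all genes) and 15 had H3K4me3 in all 4 lines (31.2% of all genes). Grhl2, a factor of epithelial identity, had fractions between 0.00892 and 0.0332 and H3K4me3 of 3.30, 4.52, 5.31 and 3.91 RPKM. Hoxc13, a regulator of hair keratins, had fractions between 0.0202 and 0.0527. Trp63, the factor of basal epithelium, had no H3K4me3 value and fractions of 0.227, 0.660, 0.783 and 0.727. Foxn1, a factor of hair, had no H3K4me3 value either, with fractions of 0.615, 0.602, 0.533 and 0.760. In limma none of the anchor, filament or regulator genes passed in any of the 3 assays.

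Markers were compared with the labels. H3K4me3 was listed for 7, 7, 7 and 5 of 8 pluripotency genes in PTC11, PTC12, TTF1 and TTF4 (summed 25.2, 24.9, 28.8 and 17.3 RPKM), with Pou5f1, Nanog and Sox2 in every line and Esrrb in none. For 7 fibroblast genes, which feeder cells and tail tip fibroblasts would share, the numbers were 2, 6, 6 and 5 (5.88, 22.8, 23.5 and 17.3 RPKM). For 7 proximal tubule genes they were 1, 3, 1 and 1 (4.01, 11.95, 7.15 and 4.16 RPKM), and Slc34a1 had no value. For 4 trophoblast genes they were 3 in each line (9.71 to 14.6 RPKM), and for 4 primitive endoderm genes 3, 4, 3 and 3 (8.43 to 15.4 RPKM). PTC11, the line with 1 keratin listed, also had the fewest fibroblast genes listed. TTF4, with 3 keratins listed, had 5 of 7 fibroblast genes. The part of feeder cells, of other cells in the cultures and of peak calling in the keratin counts was not tested.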

How the data were processed

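The authors deposited, for each gene and line, the fraction of methylated CpGs from nanopore reads (aligned with minimap2 2.17-r941 per the labels, called with Nanopolish and averaged over windows around the start), and for each mark an RPKM value (reads aligned with Bowtie2 2.1.0 to mm10, peaks called with MACS2 2.0.10, input RPKM subtracted, peaks averaged). Genes with no peak kept near them are blank, though some genes are listed at 0. All 16 columns of values were used, and neither unit keeps depth. The tables were joined by gene ID.

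Fractions minus the mean of their line, or log2(RPKM + 1), were compared with limma 3.58.1 (R 4.3.3, eBayes with a trend, Benjamini-Hochberg over all genes with a value in 4 lines), a step tested on simulated data. An exact test over 2 against 2 lines cannot pass 0.05, so none was used. H3K27me3 was not tested. The genes named were those with H3K4me3, the extremes of mean, range, H3K36me3 and difference between origins, and a list of well-known keratins. Members and lists were chosen with earlier results of these data known. Krt20, Krt36, Krt74 and the examples from the anchor, filament and regulator lists were named after their values were seen. Other steps used Python 3.11.15, pandas 2.3.3, numpy 2.4.6 and matplotlib 3.10.9. CpGs were counted in GRCm38.p6. Alternatives varied the pairing of lines, centring, scale, filters, pseudocount, summaries, windows and the lines included.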

Additional observations from a re-analysis of the deposited data

How the results depend on the processing

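No keratin passed the adjusted limma test in any assay under any setting, with 0 called in each. The smallest adjusted keratin p in methylation was 0.0891, without TTF1, and 1.00 as reported. With the replicate block (PTC11 with TTF1 and PTC12 with TTF4, lines that the study describes as alike in H3K36me3, so a pairing by a measured outcome and not by shared animals or numbers) 0 keratins were called, while the whole table gave 24 genes in methylation, 34 in H3K4me3 and 167 in H3K36me3. Without the block these were 2, 66 and 19. They fell to 0 in all 3 assays under quantile normalization. In methylation they also fell to 0 on deposited fractions, the logit scale or a mean fraction of at least 0.1, and to 1 with no variance trend. In both marks they were 0 with no variance trend, with missing values as 0 or with a mean of at least 1 RPKM, and 102 and 44 with a pseudocount of 0.1. Leaving out 1 line gave 0 to 1020 in methylation (1020 without TTF1, 227 without TTF4, 5 without PTC11, 0 without PTC12), 59 to 108 in H3K4me3 (108 without TTF1) and 1 to 31 in H3K36me3 (1 without TTF4, 8 without TTF1, 31 without PTC11). The cause was not tested. A line left alone in its origin is assumed to vary like the other origin.

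For Krt8 methylation the difference of TTF minus PTC (-0.0113) was 0.0758 on deposited fractions, 0.167 on the logit scale and -0.0824 to 0.0597 with 1 line left out. For Krt18 it was -0.0144 (without PTC12) to 0.187. Krt18 H3K4me3 ran from -0.0446 (without PTC11) to 0.499 and Krt8 H3K36me3 from -0.579 to 0.0552 (without TTF1), on the log2 scale. The excess of keratins over all genes, averaged over lines, was 0.148 and fell to 0.107 with medians. The difference between clusters (0.0255) was -0.00278 by keratin type. Keratins with H3K4me3 in any line numbered 18 to 30 with 1 line left out, 18 without PTC12. Those with H3K36me3 in all 4 lines numbered 24, and 13 at 1 RPKM or more. The correlation of CpG number with methylation (-0.0372) was 0.294 in TTF4 alone. Keratins with both TTF lines below the PTC lines numbered 8 centred (12.8% of all genes), 0 on deposited fractions (3.36%) and 14 under quantile normalization (17.1%), and those with both above numbered 8 (15%), 10 (20.5%) and 9 (16.5%). The family mean of TTF minus PTC lines, 0.0916, was 0.00448 after centring and ran from -0.0756 (without TTF4) to 0.259 (without TTF1), with 0.0230 without PTC11 and 0.160 without PTC12. The CpG correlation was 0.00344 in a narrower window. For single genes 133 values kept their direction and side of the threshold, and 7 reversed direction. The counts of marked keratins without 1 line, the CpG correlations of single lines and the overlap of origins on other scales were chosen after seeing the data. Depth is unknown, so its limit on these values cannot be given.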
